A study of Mus musculus with 5 samples.

Results

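Fibroblast growth factors and their receptors were read in the luminal layer of the mouse uterus from before to just after embryo attachment. The set holds 10 genes, taken by symbol from a table of 23420 genes: the ligands Fgf1, Fgf2, Fgf7, Fgf9, Fgf10 and Fgf18 and the receptors Fgfr1, Fgfr2, Fgfr3 and Fgfr4. Of these, 7 passed a minimum of 1 CPM (counts per 1000000 counted reads) on average over the libraries, and Fgf2, Fgf7 and Fgfr3 did not.

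The study profiled wild-type C57BL/6N females without any transgene or treatment, with the day of the vaginal plug counted as day 1 of pregnancy. The 5 libraries came from the luminal layer on day 3 in the morning, day 4 in the morning, day 4 in the evening, and day 5 in the morning either away from the attached embryo or around it. The labels name a low-input kit for amplifying the RNA, which the study's methods give for material cut from frozen sections by laser microdissection, followed by paired-end sequencing. The sample descriptions also mark the day 5 libraries Mpole (away) and Ampole (around), so distance from the embryo and this difference in position cannot be told apart. The age of the females is not given in the sources used here, nor is the number of females behind each of these libraries; the study's methods describe pooling of RNA for its Lif groups, whose libraries were not used here. Each condition has 1 library, so no difference below has a replicate check: folds compare libraries, and the exact 95% intervals beside them cover counting error only. Total counts ran from 15334674 to 19529491, and a floor of 3 counts equals 0.161 to 0.190 CPM. In such bulk material, fewer cells of a type and less RNA per cell cannot be told apart.

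Fibroblast growth factors are secreted proteins that bind receptor tyrosine kinases together with heparan sulfate chains. The bound receptors act through the adaptor Frs2 and the Ras and Mapk kinases, and the genes that follow include the feedback inhibitors of the Sprouty, Spred and Dusp families and the transcription factors Etv4 and Etv5. Receptors are spliced into forms that differ in the ligands they accept. Fgf7 and Fgf10, made by mesenchyme, act on the epithelial form of Fgfr2, whereas Fgf9 and Fgf18 act mainly on the forms typical of mesenchyme and Fgf1 binds every form. In the uterus, progesterone-induced Hand2 in the stroma restrains the stromal output of fibroblast growth factors that act on the epithelium.

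RefSeq promoters of build GRCm38.p6 were matched for 8 of the 10 genes, all but Fgf1 and Fgfr1. Those of Fgf9 and Fgf18 are shown because these ligands lead per length at different times, and that of Fgfr2 because it is the most abundant receptor per length. Each is the 250 bases before the annotated start, at chr14:58072436-58072685 on the plus strand for Fgf9, chr11:33147401-33147650 on the minus strand for Fgf18 and chr7:130266809-130267058 on the minus strand for Fgfr2, with any GC box (GGGCGG on either strand) in capitals.
Fgf9: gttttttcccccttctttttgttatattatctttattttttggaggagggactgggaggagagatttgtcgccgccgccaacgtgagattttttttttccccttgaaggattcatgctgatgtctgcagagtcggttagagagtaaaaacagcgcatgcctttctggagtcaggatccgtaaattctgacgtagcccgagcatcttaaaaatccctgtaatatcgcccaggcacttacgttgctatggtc
Fgf18: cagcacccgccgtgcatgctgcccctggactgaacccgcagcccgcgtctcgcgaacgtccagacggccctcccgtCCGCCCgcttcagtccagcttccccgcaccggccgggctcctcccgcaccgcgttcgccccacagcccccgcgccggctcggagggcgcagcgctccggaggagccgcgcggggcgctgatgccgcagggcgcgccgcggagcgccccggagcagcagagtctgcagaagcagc
Fgfr2: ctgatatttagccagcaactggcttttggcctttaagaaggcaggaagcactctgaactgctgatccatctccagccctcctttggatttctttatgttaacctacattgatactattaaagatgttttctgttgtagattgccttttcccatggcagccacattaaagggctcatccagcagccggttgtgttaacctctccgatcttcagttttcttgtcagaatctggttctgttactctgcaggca
The Fgf18 promoter was 77.2% G and C, against 44.8% for Fgf9, 44% for Fgfr2 and a median of 52.4% over 32851 promoters of the same length. It held 1 GC box, at bases 77 to 82 of the window, and 32.7% of all promoters held at least 1. The STAT motif TTCNNNGAA was in 7.02% of all promoters, the steroid receptor motif ACANNNTGT in 5.84% and the TATA box TATAAA in 12.4%, each searched on both strands. None of these 3 motifs was found in the windows of the 8 genes, which says only that the letters are not in these bases.

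The ligands changed places between day 4 and day 5. Per length, Fgf1 and Fgf18 were the leading ligands on day 3 and day 4. They were near the floor away from the embryo on day 5, while Fgf9, below both per length on day 3 and day 4, led in both day 5 libraries. The plot of member levels by library shows the exchange in CPM. On that scale Fgf9 already stood above Fgf18 on day 4 evening, at 18.3 and 14.7 CPM. CPM values were scaled by TMM, and log2 differences were taken with a prior count of 2 whereas their intervals are those of the count ratio. Folds are ratios of CPM without this prior count, so at low counts they are larger than the log2 difference beside them.

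**Figure D1:**
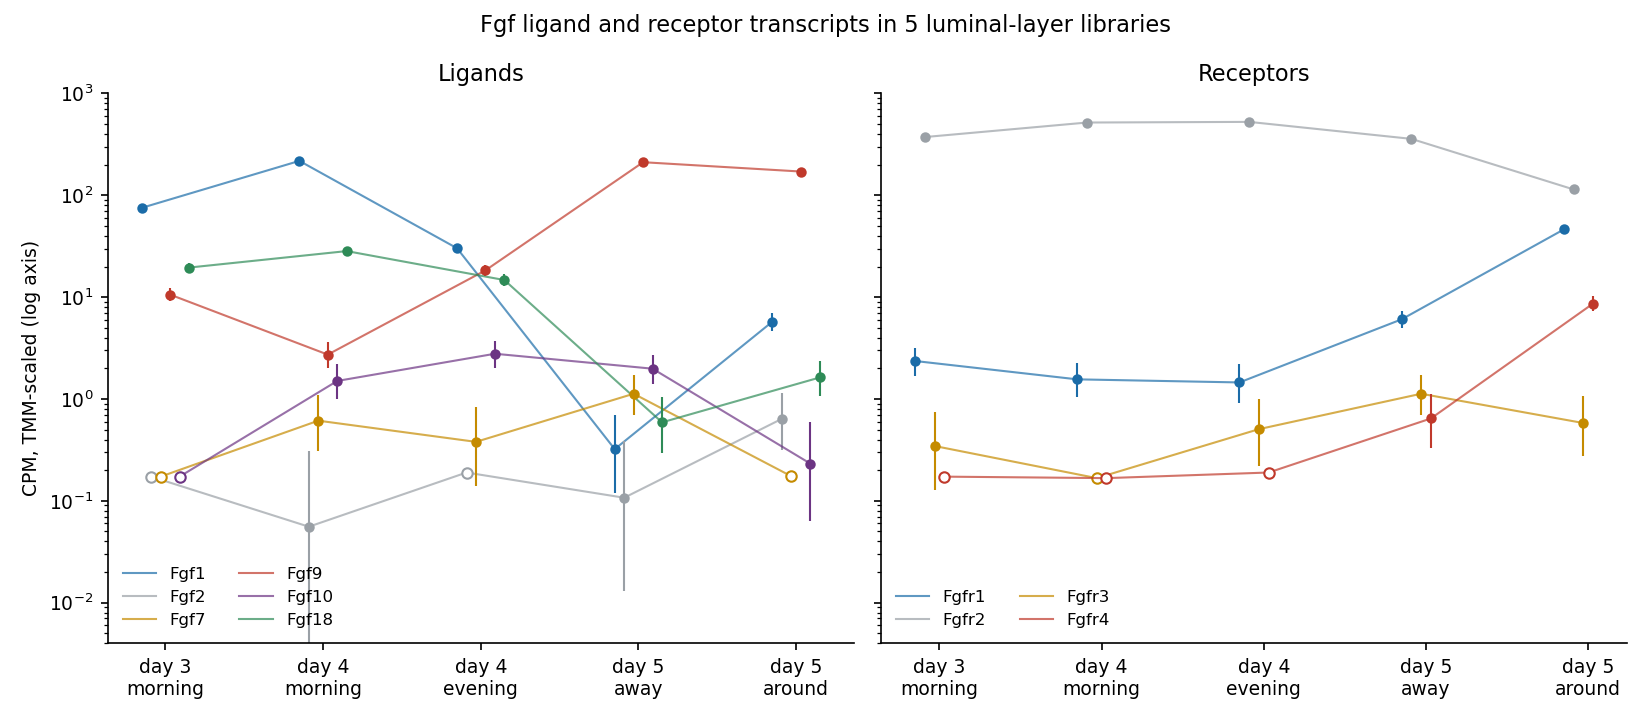
Level of each of the 10 genes in CPM on a log axis in the 5 libraries, with exact 95% Poisson intervals and with open circles for 0 counts drawn at the floor of 3 counts; lines only join the points of a gene. Fgf9 sits at 211 and 171 CPM in the day 5 libraries after 18.3 CPM on day 4 in the evening, and Fgf1 runs the other way, from 218 CPM on day 4 in the morning to 0.322 CPM away from the embryo.

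Fgf1, the ligand that binds every receptor form, lies on chromosome 18. It stood at 75.3 CPM on day 3 in the morning, 218 CPM on day 4 in the morning, 30.2 CPM on day 4 in the evening, 0.322 CPM away from the embryo and 5.75 CPM around the attached embryo. The day 4 morning library was the highest and the library away from the embryo the lowest, and all neighbours in this order were apart beyond counting error. Between the morning and evening of day 4 the log2 difference was -2.85 [-2.99, -2.71]. From day 4 evening it was -6.12 [-8.01, -5.42] away from the embryo, a 93.9-fold lower level that rests on 6 counts. Around the embryo it was -2.37 [-2.72, -2.08], so the library around the embryo held 17.9-fold more Fgf1 than the one away from it (log2 difference 3.75 [2.99, 5.64]).

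Fgf18, a ligand best known from bone and lung, lies on chromosome 11 from 33117431 to 33147400. Its levels were 19.5, 28.3 and 14.7 CPM in the libraries of day 3 morning, day 4 morning and day 4 evening, then 0.590 CPM away from the embryo and 1.63 CPM around the attached embryo. The order of the libraries was the same as for Fgf1, over a smaller range. Against day 4 evening the log2 difference was -4.40 [-5.66, -3.78] away from the embryo and -3.09 [-3.80, -2.61] around the attached embryo. Around against away it was 1.30 [0.41, 2.62], from 28 and 11 counts.

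Fgf9, a ligand whose textbook targets are mesenchymal receptors, lies on chromosome 14 from 58072686 to 58112720. It was at 10.6 CPM on day 3 in the morning, 2.73 CPM on day 4 in the morning, 18.3 CPM on day 4 in the evening, 211 CPM away from the embryo and 171 CPM around the attached embryo. It was lowest in the library where Fgf1 was highest. From the morning to the evening of day 4 it was 6.72-fold higher (log2 difference 2.70 [2.31, 3.22]). Relative to day 4 evening, Fgf9 was 11.5-fold higher away from the embryo (3.52 [3.36, 3.71]) and 9.34-fold higher around the attached embryo (3.22 [3.05, 3.40]). Between the day 5 libraries the difference was small, -0.30 [-0.37, -0.24] around against away, and it stood outside counting error.

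Fgf10 and Fgf7, the mesenchymal ligands of epithelial Fgfr2, were low, with at most 44 counts in a library. Fgf10 (chromosome 13, 118714699 to 118792573) had 0, 27, 44, 37 and 4 counts in the libraries from day 3 morning to day 5 around the embryo. Its day 4 morning level was at least 8.70-fold higher than the day 3 floor of 3 counts in that library. The library around the embryo was 12.0-fold lower than day 4 evening (log2 difference -3.06 [-5.52, -2.12]) and 8.54-fold lower than the library away from the embryo (-2.60 [-5.04, -1.62]). Its levels on day 4 evening, day 5 away and day 4 morning, 2.78, 1.98 and 1.50 CPM, did not separate from one neighbour to the next beyond counting error, but day 4 evening stood above day 4 morning (0.84 [0.16, 1.64]). Fgf7 (chromosome 2, 126034658 to 126091185) had 0, 11, 6, 21 and 0 counts, so both ligands had more counts away from the embryo than around it. Fgf2 (chromosome 3, 37348653 to 37404830), a ligand stored on heparan sulfate of the matrix, had 0, 1, 0, 2 and 11 counts, with its most in the library around the embryo.

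Among the receptors, Fgfr2 was the most abundant per length in every library. On day 5 it was lower by more than 2-fold around the embryo and by less away from it, and Fgfr1 and Fgfr4 were highest around the embryo. Fgfr2 (chromosome 7, 130162451 to 130266808) was at 373, 519 and 526 CPM on day 3 morning, day 4 morning and day 4 evening, at 359 CPM away from the embryo and at 114 CPM in the library around the attached embryo. Averaged over the libraries, its CPM exceeded that of 97.5% of the genes that passed the minimum. The 2 day 4 libraries did not differ beyond counting error (log2 difference 0.02 [-0.02, 0.06]). Against day 4 evening the difference was -0.55 [-0.60, -0.51] away from the embryo and -2.20 [-2.28, -2.13] around the attached embryo, a 4.61-fold lower level. Around against away, Fgfr2 was 3.14-fold lower (-1.65 [-1.72, -1.58]). These counts sum all splice forms of the gene, so the epithelial and mesenchymal forms are not separated.

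Fgfr1, the receptor typical of mesenchyme, lies on chromosome 8 from 25518772 to 25575714. It was at 2.36, 1.56 and 1.45 CPM on day 3 morning, day 4 morning and day 4 evening, at 6.06 CPM away from the embryo and at 46.3 CPM around the attached embryo. The first 3 of these levels did not differ from their neighbours beyond counting error, and both day 5 libraries stood above them. Against day 4 evening the log2 difference was 1.98 [1.40, 2.77] away from the embryo, from 113 and 23 counts, and 4.89 [4.40, 5.66] around it, a 31.8-fold higher level. Around against away, Fgfr1 was 7.64-fold higher (2.91 [2.65, 3.23]).

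Fgfr4, a receptor best known from liver, and Fgfr3, best known from cartilage, were low. Fgfr4 (chromosome 13, 55152818 to 55168759) had 0 counts on day 3 and in both day 4 libraries, 12 counts away from the embryo and 149 counts around the attached embryo. Against the floor of the day 4 evening library it was at least 3.39-fold higher away from the embryo and at least 45.6-fold higher around the attached embryo. Around against away, it was 13.4-fold higher (log2 difference 3.53 [2.90, 4.73]). Fgfr4 passed the minimum only through the library around the embryo. Fgfr3 (chromosome 5, 33721724 to 33737068) had 6, 0, 8, 21 and 10 counts.

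The 10 genes can be set beside each other per length, in RPKM, which is CPM divided by the gene's length in kilobases, as in the stacked plot of ligands and receptors. Summed RPKM of the 6 ligands was 39.8, 83.2 and 26.5 on day 3 morning, day 4 morning and day 4 evening, 52.7 in the library away from the embryo and 45.3 around the attached embryo. The leading ligand of this sum differed with time. Fgf1 gave 48.4% of it on day 3 in the morning, where Fgf18 gave 45.2%, and 67.0% on day 4 in the morning. Fgf18 gave 51.3% on day 4 in the evening, and Fgf9 gave 96.9% away from the embryo and 91.3% around the attached embryo. The evening lead of Fgf18 holds per length only, with 1085 bases against 3909 for Fgf1 and 4139 for Fgf9. In CPM Fgf18 was below both there, at 14.7 against 30.2 for Fgf1 and 18.3 for Fgf9. On this scale Fgf1 stood 84.6-fold [63.8, 114] above Fgf9 on day 4 in the morning and 1.75-fold [1.51, 2.03] above it in the evening. Fgf9 stood 621-fold [285, 1693] above Fgf1 away from the embryo and 28.1-fold [23.0, 34.7] above it around the embryo.

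**Figure D2:**
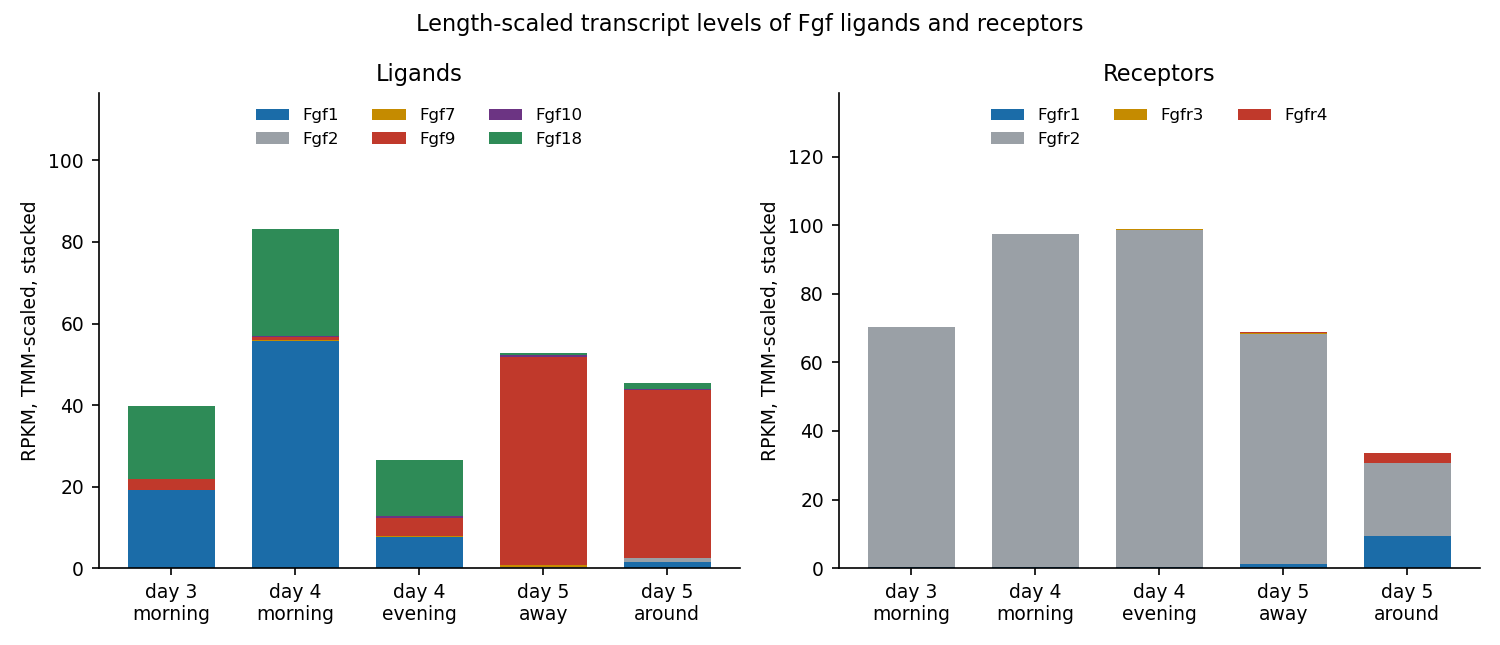
Stacked RPKM of the 6 ligands and of the 4 receptors in each of the 5 libraries, with 1 colour per gene. Fgf9 fills 96.9% and 91.3% of the ligand bars of day 5, and Fgfr2 fills at least 97.6% of every receptor bar except the one around the embryo, where it holds 63.8% and Fgfr1 27.6%.

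Receptor transcripts were nearly all Fgfr2 in 4 of the 5 libraries. Summed receptor RPKM was 70.4, 97.3 and 98.9 on day 3 morning, day 4 morning and day 4 evening, 68.7 in the library away from the embryo and 33.5 around the attached embryo. Fgfr2 made up 99.2%, 99.7%, 99.6%, 97.6% and 63.8% of it in that order. The ratio of Fgfr2 to Fgfr1 per length was 148 [109, 207] on day 3 in the morning, 312 [216, 469] on day 4 in the morning and 339 [226, 535] in the evening. It was 55.4 [46.0, 67.4] away from the embryo and 2.31 [2.13, 2.51] around the attached embryo, so the day 5 libraries differed from each other by far more than counting error.

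Differences of more than 2-fold were counted over the 12915 genes that passed the minimum, to set the 7 members among them beside the rest of the transcriptome. On day 4 against day 3 in the morning 3 of 7 passed this fold, Fgf1 and Fgf10 higher and Fgf9 lower, where the share over all genes was 18.8% (7.44% higher, 11.4% lower). From the morning to the evening of day 4, 2 of 7 did, Fgf9 higher and Fgf1 lower, with a background of 14% (7.05% higher, 6.95% lower). Away from the embryo against day 4 evening 5 of 7 did: Fgf9, Fgfr1 and Fgfr4 were higher and Fgf1 and Fgf18 lower, against 25.5% of all genes (12.9% higher, 12.6% lower). Around the embryo against day 4 evening all 7 did, the same 3 genes higher and Fgf1, Fgf10, Fgf18 and Fgfr2 lower, against 39.8% (19.1% higher, 20.7% lower). Fgfr4 reached the minimum only through that library, which fixes its call there. Fgf10, highest on day 4 evening, reached the minimum over the 5 libraries only with that day 4 evening library, which favours its lower call. With the minimum taken over the 4 libraries other than the one around the embryo, 6 of 6 members passed the fold, Fgf10 among them. The share over all genes was then 38.9% of 12713 genes. These day 5 comparisons share the day 4 evening library, so their agreement is not counted as a result. Around against away, 6 of 7 passed the fold, with Fgf1, Fgf18, Fgfr1 and Fgfr4 higher and Fgf10 and Fgfr2 lower, against 28.3% (13.3% higher, 14.9% lower), or 5 of 6 against 27.1% under that other minimum. The median log2 difference of the 7 genes in these 5 comparisons was 0.47, 0.00, -0.46, -2.20 and 1.30, where that of all genes lay between -0.05 and 0.01. Fgfr4 had 0 counts in both libraries of the first 2 comparisons, and with it left out there the median was 0.50 and -0.04. Setting genes at 0 counts in 1 library to their bound left the medians of the other comparisons the same. With 7 genes of large and opposite differences, the median describes no common direction.

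Scaling by library totals in place of TMM changed how the calls over all genes were split. For day 4 against day 3 in the morning the numbers of genes higher and lower were 961 and 1467 under TMM and 535 and 2196 under library totals. Away from the embryo against day 4 evening they were 1666 and 1633 under TMM and 2240 and 1258 under library totals, and around against away 1724 and 1928 and then 1287 and 2798. The 10 genes had 31 differences past 2-fold under TMM, those under the minimum included, and all 31 kept their direction under library totals. Among the pathway genes described next, the calls around against away were 18 higher and 7 lower under TMM and 16 and 16 under library totals.

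The other genes of the pathway were read in 7 lists of 88 genes, of which 68 passed the minimum. Their higher and lower calls were 4 and 12 for day 4 against day 3 in the morning, 12 and 2 for the evening against the morning of day 4, 14 and 7 away from the embryo, 22 and 5 around the attached embryo, and 18 and 7 around against away. As shares of 68 genes the higher calls were 5.88%, 17.6%, 20.6%, 32.4% and 26.5%, beside 7.44%, 7.05%, 12.9%, 19.1% and 13.3% of all genes. The lower calls were 17.6%, 2.94%, 10.3%, 7.35% and 10.3%, beside 11.4%, 6.95%, 12.6%, 20.7% and 14.9%. In either direction the share around the embryo against day 4 evening was 39.7%, close to the 39.8% of all genes. Median log2 differences were -0.07, 0.04, 0.29, 0.49 and 0.34. The first was -0.08 with genes at 0 counts in 1 library at their bound and Fosl1, at 0 in both, left out. Fgfbp1 and Fosl1 reached the minimum only through the library around the embryo. With the minimum taken over the other 4 libraries these dropped out and a feedback inhibitor entered. The calls were then 20 and 6 around the embryo and 16 and 8 around against away, of 67 genes.

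The 16 other ligands of the family were low, and none passed the minimum. Their counts above the floor were held by 3, 2, 1, 1 and 6 genes in the 5 libraries. Fgf16 had 41 counts on day 3 in the morning. Around the embryo Fgf3 had 16 counts and Fgf4, a ligand of the blastocyst's inner cell mass, had 13, and both were at 0 in the other 4 libraries. Fgf4 was chosen after its values were seen.

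Among co-receptors and binding proteins, higher calls outnumbered lower ones on day 5. Of 12 that passed the minimum, 6 were higher and 1 lower in the library away from the embryo, where 12.9% and 12.6% of all genes were. Around it 8 were higher and 1 lower, where 19.1% and 20.7% of all genes were, and median log2 differences were 1.04 and 1.63. Fgfbp1, at 75 counts around the embryo and at most 20 elsewhere, is among these calls and passed the minimum only through that library. Syndecans carry heparan sulfate at the cell surface, and Sdc4 was the most abundant of the list per length in every library. Sdc1 counts were 1134, 283, 374, 3926 and 7293 in the 5 libraries, 8.90-fold higher away from the embryo and 17.9-fold higher around the attached embryo than on day 4 evening. The decoy receptor Fgfrl1, which lacks the kinase, went from 15.5 CPM on day 4 evening to 26.4 CPM away from the embryo and 70.4 CPM around the attached embryo. Its difference passed 2-fold around the embryo (2.18 [1.98, 2.39]) and not away from it (0.77 [0.55, 1.00]). On day 4 against day 3 in the morning 5 of the 12 were lower (11.4% of all genes), Sdc1 among them, or 4 of 11 without Fgfbp1. In the evening against the morning of day 4, 1 was higher and 1 lower (7.05% and 6.95%). Around against away 6 were higher and 1 lower, beside 13.3% and 14.9% of all genes.

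Heparan sulfate enzymes gave mixed counts. Of 12 that passed the minimum, 3 were higher and 1 lower on day 4 against day 3 in the morning, 2 were higher in the evening, 3 were lower away from the embryo, 2 were higher and 1 lower around it, and 2 were higher around against away. The shares of all genes in these 5 comparisons were 7.44%, 7.05%, 12.9%, 19.1% and 13.3% higher and 11.4%, 6.95%, 12.6%, 20.7% and 14.9% lower, and they apply to the lists that follow as well. Hs3st1, a 3-O-sulfotransferase, was 14.8-fold higher on day 4 than on day 3 in the morning, with 1534 and 100 counts. Glce, the epimerase of the chain, had 1255, 3324, 2298, 574 and 530 counts and was 4.72-fold lower on day 5 than on day 4 evening in both libraries. Sulf1 removes 6-O-sulfates from the chains outside the cell, and its 568 counts around the embryo were 8.66-fold above the level away from it.

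Few genes of the signal cascade passed 2-fold. Of 20 that passed the minimum, none did on day 4, 1 was higher away from the embryo, 2 were higher and 1 lower around it, and 1 was higher and 1 lower around against away. Gab1, an adaptor, was higher away from the embryo than on day 4 evening. Around the embryo Map2k1, the kinase of Erk, was 2.84-fold higher and Shc1 2.18-fold higher than on day 4 evening, and Frs3 was lower. Around against away, Map2k1 was higher and Braf lower.

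Feedback inhibitors held genes of both directions, as the plot of feedback and target genes shows. Of 10 that passed the minimum, 3 were lower on day 4 against day 3 in the morning (11.4% of all genes) and 4 were higher in the evening (7.05%). Away from the embryo 3 were higher and 1 lower (12.9% and 12.6% of all genes), around it 4 and 1 (19.1% and 20.7%), and around against away 4 and 2 (13.3% and 14.9%). Spry4 was at 3.34, 1.50 and 3.86 CPM on day 3 and in the day 4 libraries, then 9.49 CPM away from the embryo and 43.8 CPM around the attached embryo, 11.4-fold above day 4 evening (3.47 [3.13, 3.91]). Its relative Spry2 was at 23.1, 42.1, 47.8, 89.7 and 27.0 CPM, and around the embryo it was 3.32-fold lower than away from it (-1.73 [-1.88, -1.58]). Dusp6, the Erk phosphatase and the most abundant of the list per length on day 4 evening and around the embryo, was at 40.0, 52.6, 92.1, 115 and 207 CPM. Dusp4 had 0 counts on day 4 in the morning and 101 in the evening, at least 38.2-fold above the floor.

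**Figure D3:**
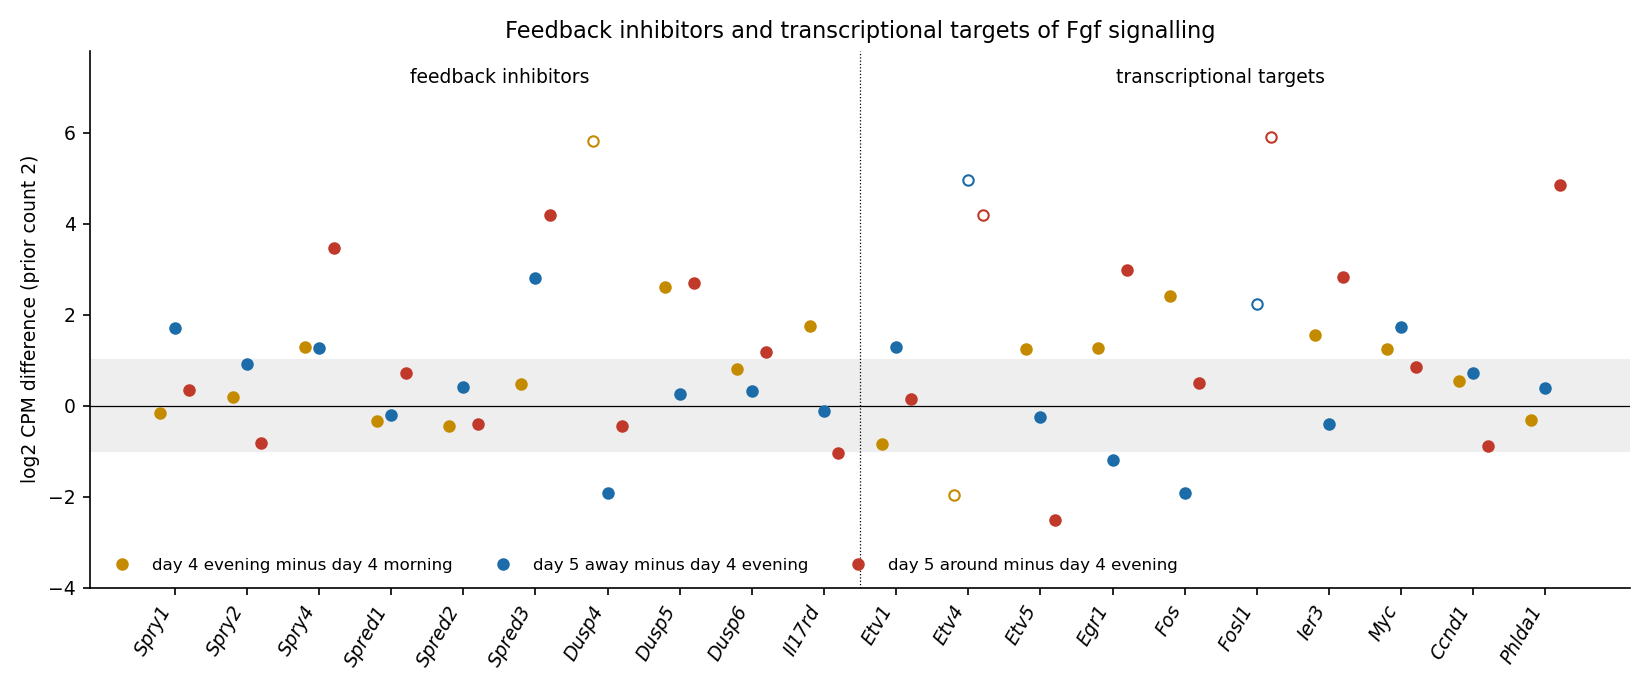
Log2 CPM difference of the feedback inhibitors and transcriptional targets that passed the minimum, for day 4 evening minus day 4 morning and for each day 5 library minus day 4 evening, with a grey band for differences within 2-fold and open circles for genes with 0 counts in 1 library. Around the embryo Spry4 lies at 3.47 and Phlda1 at 4.84, both above the band, whereas Etv5 lies below it at -2.52.

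Transcriptional targets differed in direction too. Of 10 that passed the minimum, 1 was higher and 3 lower on day 4 against day 3 in the morning (7.44% and 11.4% of all genes), 5 and 1 in the evening (7.05% and 6.95%), 4 and 2 away from the embryo, 5 and 1 around the attached embryo, and 5 and 3 around against away. The lower call in the evening was Etv4, with 0 against 6 counts, which the floor of 3 counts bounds at only 1.76-fold. Fosl1, with 8 counts away from the embryo, 116 around it and 0 before, passed the minimum only through the library around the embryo and is higher in each of the day 5 calls. Etv4 passed the minimum only through the library away from the embryo, which favours its higher call there. Etv5 was at 11.5, 35.2, 83.0, 69.6 and 14.3 CPM. Its library around the embryo was 5.79-fold below day 4 evening and 4.85-fold below the library away from the embryo. Etv4 had 13, 6, 0, 65 and 34 counts. Egr1, an immediate early gene with many inputs, went the other way, with 1895 counts around the embryo and 112 away from it, an 18.3-fold difference (4.17 [3.92, 4.48]). Phlda1 had 2302 counts around the embryo and 112 away from it, a 22.3-fold difference in CPM. Ier3 was the most abundant of the list per length in every library.

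Of 4 regulators of splicing that act on receptor forms, 1 passed 2-fold. Rbfox2 was 2.97-fold higher around the embryo than on day 4 evening. Ptbp1 was the most abundant of the 4 per length in every library.

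Markers of the labelled tissue and of other cell types moved with some of these results, and their part in the results was not tested. All 11 luminal epithelium markers were above the floor in every library. Their summed level was 11160, 15114, 10866, 5060 and 7702 CPM in the 5 libraries, led by Calb1 until day 4 evening, by Cldn3 away from the embryo and by Epcam around it. Their directions differed: around the embryo against day 4 evening, where Fgfr2 was 4.61-fold lower, 4 were higher and 3 lower. Calb1 went from 4621 to 17.8 CPM and Epcam from 743 to 1524 CPM, and without Calb1 the sums were 6244 and 7685 CPM. The 11 stroma markers, all above the floor everywhere, summed to 628, 583, 677, 618 and 433 CPM. Col3a1 led them until the library around the embryo, where it was at 42.3 CPM against 215 CPM on day 4 evening. There Hand2 led at 132 CPM, after 6.45 CPM on day 4 evening and 20.9 CPM away from the embryo. Without Hand2 the stroma sums were 670.3 CPM on day 4 evening, 597 CPM away from the embryo and 301 CPM around the attached embryo. In that last library 3 stroma markers were higher and 4 lower than on day 4 evening, and 1 was higher and 5 lower than away from the embryo.

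**Figure D4:**
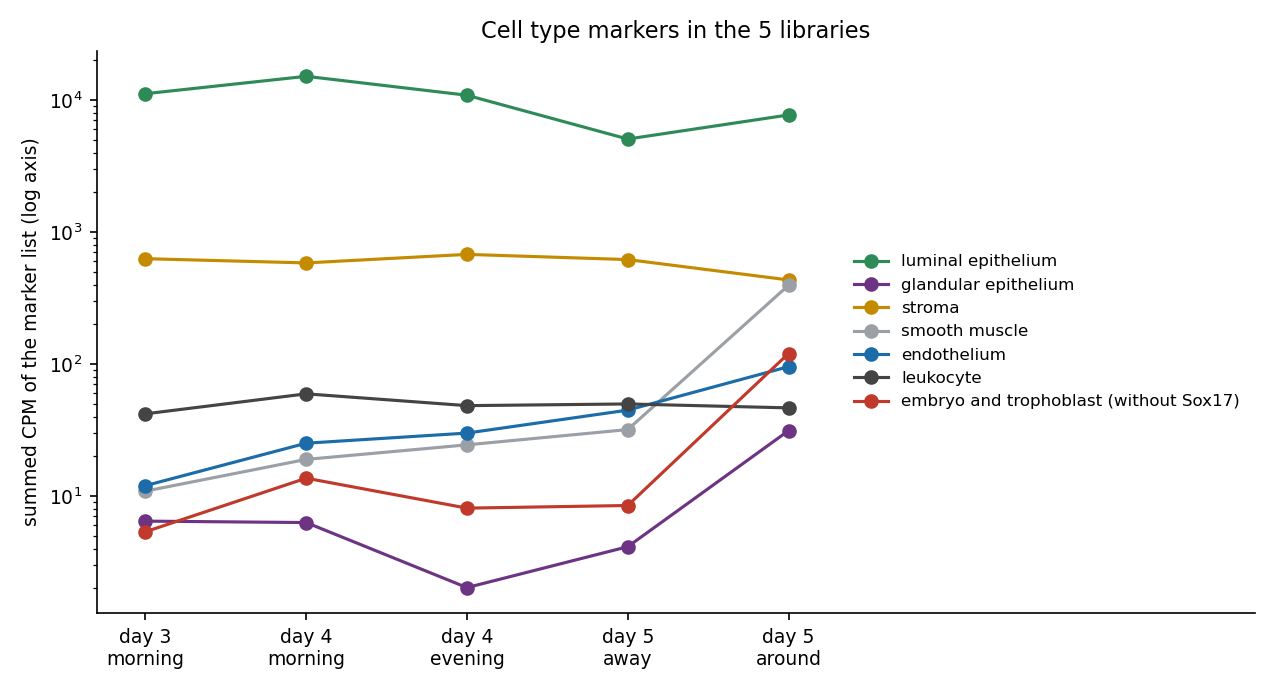
Summed CPM on a log axis of each of the 7 marker lists in the 5 libraries, with Sox17 left out of the embryo list and lines that only join the points of a list. The smooth muscle list reaches 395 CPM and the embryo list 120 CPM around the embryo, against 31.8 and 8.47 CPM away from it.

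The library around the embryo, where Fgfr1 and Fgfr4 were highest, also had the highest sums of the embryo, smooth muscle, endothelium and glandular lists. Embryo and trophoblast markers other than Sox17 summed to 5.36, 13.6, 8.09, 8.47 and 120 CPM. Sox17, at 762 to 2277 CPM in every library, was left out of these sums after its values were seen. Of the defining embryo markers, Pou5f1 had 68 counts, Cdx2 22 and Nanog 10 around the embryo, and all 3 were at 0 in the other 4 libraries. Away from the embryo, where Fgfr1 was 4.17-fold higher than on day 4 evening, 3 of the 6 embryo markers that passed the minimum were higher and 2 lower than on day 4 evening. Gata3 and Gata6, both among the 3 that were higher, passed only through the library around the embryo, and with the minimum taken over the other 4 libraries 1 of 4 was higher and 2 lower. Both tallies include Sox17, which is 1 of the 2 that were lower, at 762 CPM against 1818 CPM on day 4 evening. Smooth muscle markers summed to 10.9, 18.9, 24.4, 31.8 and 395 CPM, led in every library by Des, a gene also expressed in decidualizing stroma, at 354 CPM around the embryo, and the other 5 summed to 12.1 CPM away and 41.1 CPM around. Endothelium markers summed to 12.0, 25.1, 30.0, 44.7 and 95.5 CPM, led around the embryo by Cdh5 at 71.4 CPM, and the other 4 summed to 37.6 CPM away and 24.1 CPM around. Glandular markers summed to 6.45, 6.29, 2.02, 4.13 and 31.2 CPM, with Foxa2 and Lif at 0 on day 4 evening. Around the embryo Lif, which stroma near attached embryos also expresses, was at 17.7 CPM, and the other 7 summed to 13.6 CPM, against 4.38, 5.35, 2.02 and 4.02 CPM in the other 4 libraries in the same order. Prss28, Prss29 and Spink3 were highest around the embryo, with 44, 74 and 81 counts against at most 21, 35 and 20 in any other library, and Foxa2 was at 1.22 CPM there and at 1.84 and 2.84 CPM on day 3 and day 4 in the morning. Each of the 5 glandular markers that passed the minimum was higher around than away from the embryo, and 3 of them, Lif, Prss29 and Spink3, passed only through the library around the embryo. Leukocyte markers summed to 41.9, 59.4, 48.4, 49.8 and 46.5 CPM. Around the embryo against day 4 evening 1 of 5 that passed the minimum, Cd68, was higher (9.99 and 38.9 CPM) and 4 were lower, with a median log2 difference of -2.01. Without Cd68 the sums were 38.4 CPM on day 4 evening and 7.61 CPM around the embryo, where Ncr1 was at 0.

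Genes with the most similar course over the 5 libraries were sought among 8841 genes whose mean reached 10 CPM, by the root-mean-square distance of centred log2 CPM. This distance is a description over 5 points. Nearest to Fgf1 were Atf7ip2 at 0.53, Enox1 at 0.74 and B3gnt5 at 0.75, and no gene came within 0.5. Nearest to Fgf9 were Depdc7 at 0.39, Rnf39 at 0.42 and Arnt2 at 0.44. Fgf18 had Itga9 at 0.10, then Bcl2l15 at 0.33 and Insl6 at 0.36. Pfkp and Ripk3 lay at 0.32 from Fgfr1 and Clic4 at 0.35. The course of Fgfr2 was a common one: Casp1 lay at 0.04, Cyb5r1 and Usp46 at 0.10, and 833 genes came within 0.5, against 16 for Fgfr1, 10 for Fgf18 and 6 for Fgf9.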

How the data were processed

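RNA of the luminal layer was amplified with the SMART-seq v.4 kit, per the labels, and sequenced paired-end; the study's methods describe laser microdissection for its epithelial samples. Reads were aligned with HISAT2 to GRCm38/mm10 and counted with featureCounts of Subread 2.0.0. The authors deposited raw counts per gene, unnormalized, with the gene length in bases, in 1 table that holds the 5 libraries used here. The annotation, the strand setting, the treatment of reads that map to several places and any pooling for these libraries are not given in the sources used here; pooling is described for the Lif groups of the study. Gene positions and exons are those the authors give beside the counts, and there the exons of the 10 genes overlap no other gene.

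The table was handled in Python 3.11.15 (numpy 2.4.6, pandas 2.3.3) and scaled in R 4.3.3 by TMM of edgeR 4.0.16, which was used for no test. Size factors of DESeq2 1.42.0 served as an alternative scaling only. Log2 CPM carried a prior count of 2. Genes whose mean reached 1 CPM were kept, and a difference beyond 2-fold was counted as higher or lower. Intervals are exact (Clopper-Pearson, 95%, scipy 1.17.1). A gene at 0 counts was set to 3 counts for a lower bound. RPKM was computed per 1000 bases from the scaled counts. Plots used matplotlib 3.10.9. The calling step was tested on simulated Poisson counts of 2 libraries of equal size. Such counts hold counting error only, so the test does not show how calls behave between unreplicated libraries.

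All 10 members were named. From each pathway list the most abundant gene and up to 3 genes with the largest difference past 2-fold per comparison could be named. From each marker list the most abundant gene and genes at or under the floor could be named. Fgf4 and Gata3 fall outside these rules. For members with at least 10 CPM and a range over 2 on the log2 scale the 3 nearest genes were named. The members, lists and rules were chosen with earlier results of these data known. Alternatives were other scalings, a prior count of 0.5, log2(RPKM + 1), other minimums, a 4-fold limit and, chosen after seeing the data, scaling and filtering, or filtering alone, without the library around the embryo.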

Additional observations from a re-analysis of the deposited data

How the results depend on the processing

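No paired analysis was possible because each condition has 1 library, and for the same reason no replicate could be left out. Of 48 recomputed counts of members past 2-fold, 45 stayed within 1.5 times their value in the report. On day 4 against day 3 in the morning the count went from 3 to 5 without the minimum of 1 CPM and to 1, Fgf10, at 4-fold. Away from the embryo against day 4 evening it went from 5 to 3 on the log2(RPKM + 1) scale, where Fgfr1 and Fgfr4 no longer passed. Without the library around the embryo in the scaling and the minimum, the 3 comparisons that remained gave 3, 2 and 4, since Fgfr4 then missed the minimum, and with the minimum alone changed in this way the 5 comparisons gave 3, 2, 4, 6 and 5. All 31 differences past 2-fold of the 10 genes kept their direction under the 5 settings of scaling and pseudocount, and 17 of them stayed past 2-fold under log2(RPKM + 1). Of 45 recomputed counts of pathway genes, 9 moved by more than 1.5 times. Over all genes, calls on day 4 against day 3 in the morning were 961 higher and 1467 lower, against 1613 and 2298 without the minimum, 409 and 753 under log2(RPKM + 1) and 154 and 531 at 4-fold. Around the embryo against day 4 evening they were 2470 and 2670, against 1152 and 1120 at 4-fold. Scaling by library totals shifted the median log2 difference of all genes to -0.29, 0.05, 0.23, -0.11 and -0.36 in the 5 comparisons. Depth limits Fgf2, Fgf7, Fgf10 and Fgfr3, with at most 44 counts in a library, and Fgf1 and Fgf18 away from the embryo.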
